A study of Mus musculus with 12 samples.

Results

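The expression of 10 genes for milk proteins was followed in mammary epithelial cells sorted from adult female mice aged 9 weeks, across 12 RNA sequencing libraries. They were the casein genes Csn1s1, Csn1s2a, Csn1s2b, Csn2 and Csn3, the whey protein genes Wap and Lalba, the mucin gene Glycam1, and Btn1a1 and Xdh, whose products coat the milk fat globule. They were chosen by name as major proteins of mouse milk and looked up in the deposited count table, where each had 1 entry of its own among 20114 entries that name a single locus. All 10 were found, and 9 had enough counts to be tested among 14039 loci, with Wap the exception.

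The 3 groups held 4 libraries each. Recombined cells came from mT-mG/SmoM2;MMTV-Cre animals, were sorted as green (EGFP) and carry active SmoM2, an activated form of the Hedgehog signal transducer Smoothened. Unrecombined cells came from animals of that same genotype but stayed red (tdTomato), without SmoM2. Wild type cells were mT-mG/SmoM2;+, so they held the reporter and the SmoM2 allele and no Cre. The MMTV promoter that drives Cre is itself active in mammary epithelium and in some other glands and is raised by steroid hormones and lactation. No green cells without SmoM2 were measured, so sorted color, Cre activity and SmoM2 cannot be told apart in the comparisons with recombined cells. Swiss Webster, C57BL/6 and 129X1/SvJ are given as the background strains of all animals. The labels do not state parity or estrous stage, nor which animals gave each library, so p-values measure the spread between these libraries.

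Milk protein genes are switched on in the secretory cells of the mammary gland during pregnancy and lactation. Prolactin binds its receptor Prlr, the kinase Jak2 phosphorylates Stat5, and Stat5 binds their promoters together with glucocorticoid receptor, C/EBPβ and NFI factors, while Elf5 acts as a further regulator of alveolar cells. Caseins pack calcium and phosphate into micelles, α-lactalbumin (Lalba) turns the galactosyltransferase B4galt1 into lactose synthase, and butyrophilin (Btn1a1) and xanthine oxidoreductase (Xdh) are needed for the release of fat globules. Csn3 and some other milk genes are also expressed before pregnancy in luminal progenitor cells, whereas Wap is a marker of late pregnancy and lactation.

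Promoter sequences are shown for the 3 caseins that varied together across libraries and for Wap, which was close to absent. Each is the 250 bases before the RefSeq start site in GRCm38.p6, and capitals mark matches to the core Stat motif TTCNNNGAA, which reads the same on both strands. Csn1s1 lies at chr5:87665958-87666207 on the plus strand, Csn2 at chr5:87699426-87699675 on the minus strand, Csn1s2a at chr5:87774200-87774449 on the plus strand and Wap at chr11:6638650-6638899 on the minus strand.
Csn1s1: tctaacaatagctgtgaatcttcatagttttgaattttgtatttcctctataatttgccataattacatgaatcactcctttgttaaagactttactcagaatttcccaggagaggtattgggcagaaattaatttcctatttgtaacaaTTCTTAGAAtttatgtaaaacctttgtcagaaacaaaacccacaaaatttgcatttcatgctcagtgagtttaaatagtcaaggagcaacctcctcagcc
Csn2: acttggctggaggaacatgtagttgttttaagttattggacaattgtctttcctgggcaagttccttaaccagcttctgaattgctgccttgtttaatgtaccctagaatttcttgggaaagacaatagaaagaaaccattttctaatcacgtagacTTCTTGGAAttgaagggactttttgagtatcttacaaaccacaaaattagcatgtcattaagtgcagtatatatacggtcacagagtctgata
Csn1s2a: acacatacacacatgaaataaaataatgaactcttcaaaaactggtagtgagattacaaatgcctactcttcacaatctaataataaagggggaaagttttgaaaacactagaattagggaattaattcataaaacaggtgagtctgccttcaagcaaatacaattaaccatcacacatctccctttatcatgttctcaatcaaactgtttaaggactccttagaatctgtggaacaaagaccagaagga
Wap: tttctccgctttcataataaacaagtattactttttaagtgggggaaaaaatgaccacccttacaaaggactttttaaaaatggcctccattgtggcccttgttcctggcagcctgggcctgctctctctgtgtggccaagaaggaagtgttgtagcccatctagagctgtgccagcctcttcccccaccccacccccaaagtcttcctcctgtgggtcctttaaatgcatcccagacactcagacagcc
The match begins 100 bases before the start of Csn1s1, at -100, and at -93 in Csn2. The window of Csn1s2a held none, although 1 began 21 bases after its start, and the windows of Wap and Lalba held none. Glycam1 had 1 at -145. The table gave promoters for 6 of the 10 genes, and 7.02% of all 32851 promoter windows of this length hold a match. A match describes letters only and is not a measured binding site.

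Total counts lay between 19581993 and 34779433 per library. Smo, the altered gene, had 49.1, 51.9, 56.9 and 74.7 CPM (read counts scaled by TMM to a common library size) in recombined libraries 1 to 4, against 18.7 to 35.2 CPM in wild type libraries, and the Hedgehog targets Gli1, Ptch1 and Hhip passed the test as well. Libraries stood apart in transcripts of the salivary gland. The summed level of 18 salivary markers was 1354 to 96645 CPM in recombined 1 and 2, unrecombined 1 and 2 and wild type 2, and 48.9 to 82.2 CPM in the other 7 libraries. In those 7, most of the sum was the entry of Amy1, with 41.4 to 69.9 CPM. That entry is shared with Rnpc3, AK017534 and mKIAA1839, so these reads may be of another gene. Marker lists also differed between groups. Between recombined and wild type libraries, 586 of all 14039 loci rose and 334 fell, or 6.55% in all. Of 12 basal markers 10 rose and none fell in recombined against wild type libraries, 8 of 14 hormone-sensing luminal markers fell, and none of the 9 luminal keratin and junction markers (median log2 fold change -0.75) or of the 13 luminal progenitor markers (median 0.30), which include Csn3 and Elf5, passed, with 5 and 2 at an unadjusted p under 0.05 in edgeR. In sorted bulk cells, fewer cells of a type and less RNA per cell cannot be told apart.

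The 10 genes spanned the whole range of expression. Per kilobase of transcript, the median level over the 12 libraries was 1017.5 CPM for Csn3, 201 for Btn1a1, 13.9 for Xdh, 7.92 for Lalba, 6.96 for Glycam1, 3.83 for Csn1s1, 1.73 for Csn2, 0.984 for Csn1s2a, 0.208 for Csn1s2b and 0 for Wap. Csn3 and Btn1a1 held 66.7% to 97.3% of all counts of the 10 genes in a library. The levels per kilobase of Btn1a1, with 70.2 as the lowest, did not overlap those of Xdh, with 26.8 as the highest, while every pair of neighbours below Xdh in this order overlapped. All 10 together took 0.135% to 0.457% of a library.

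**Figure D1:**
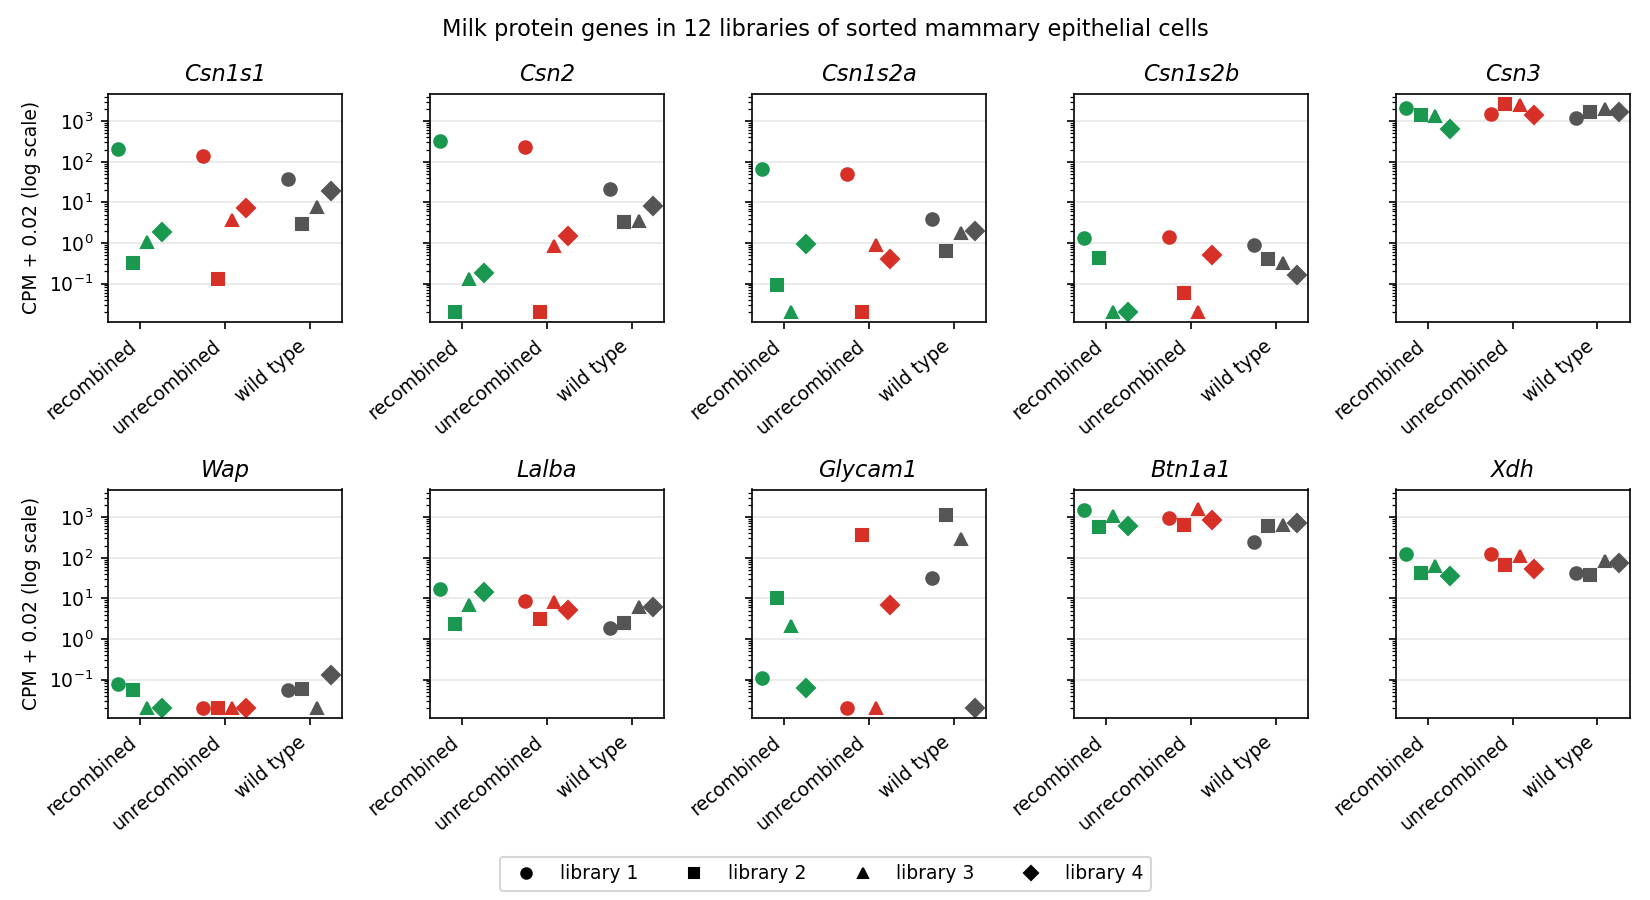
CPM plus 0.02 on a log axis for each of the 10 genes in the 4 recombined (green), 4 unrecombined (red) and 4 wild type (gray) libraries, with 1 symbol per library number. Csn1s1, Csn2 and Csn1s2a reach 202, 318 and 65.0 CPM in recombined library 1, Csn3 lies above 655 CPM in all 12 libraries and Wap has 7 libraries at 0.

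The calcium-sensitive caseins Csn1s1 (αs1-casein), Csn2 (β-casein) and Csn1s2a (one of the αs2-like caseins) were dominated by recombined 1 and unrecombined 1. Wild type 1 was the highest of its group by a smaller margin. Csn2, on mm9 chromosome 5 from 88121648, had 318, 0, 0.108 and 0.165 CPM in recombined libraries 1 to 4, 228, 0, 0.827 and 1.43 CPM in unrecombined libraries, and 21.7, 3.17, 3.49 and 8.14 CPM in wild type libraries. Library 1 was the highest of each group, and outside number 1 every recombined and unrecombined library lay below every wild type library. As read counts, Csn2 had 10663 in recombined 1 and 6302 in unrecombined 1, and 0 in both libraries with number 2. A count of 0 allows up to 3 counts, or 0.0896 to 0.162 CPM depending on the library.

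Csn1s1, from 88095248 on chromosome 5, had 202, 0.293, 1.02 and 1.81 CPM in recombined libraries, 140, 0.113, 3.70 and 7.10 CPM in unrecombined libraries, and 36.8, 2.86, 7.72 and 18.8 CPM in wild type libraries. Within each group it put the libraries in the same order as Csn2, from number 1, the highest, through 4 and 3 to number 2. Csn1s2a, from 88203591, had 65.0, 0.0733, 0 and 0.948 CPM in recombined libraries, 49.1, 0, 0.863 and 0.373 CPM in unrecombined libraries, and 3.85, 0.619, 1.79 and 1.97 CPM in wild type libraries. Csn1s2b, the other αs2-like casein, from 88237146, was at the limit of detection with 153 counts in all 12 libraries and at most 1.38 CPM, again in a library with number 1.

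Across the 12 libraries, log2 CPM of Csn1s1 and Csn2 correlated with a Pearson r of 0.98 and a Spearman rho of 0.98, and r was 0.95 without recombined 1 and unrecombined 1. For Csn1s2a with Csn2, r was 0.95, rho 0.92, and r without those 2 libraries 0.87. These are descriptions over libraries that are not all independent, since recombined and unrecombined libraries of the same number deviated together across loci (r of 0.239 to 0.399). The mixture of caseins differed too. The ratio of Csn2 to Csn1s1 counts was 1.58 in recombined 1, 1.63 in unrecombined 1, 0.591, 1.11, 0.452 and 0.433 in wild type libraries 1 to 4, and at most 0.223 in each of the other 6 libraries, where Csn2 had 42 counts or fewer.

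**Figure D2:**
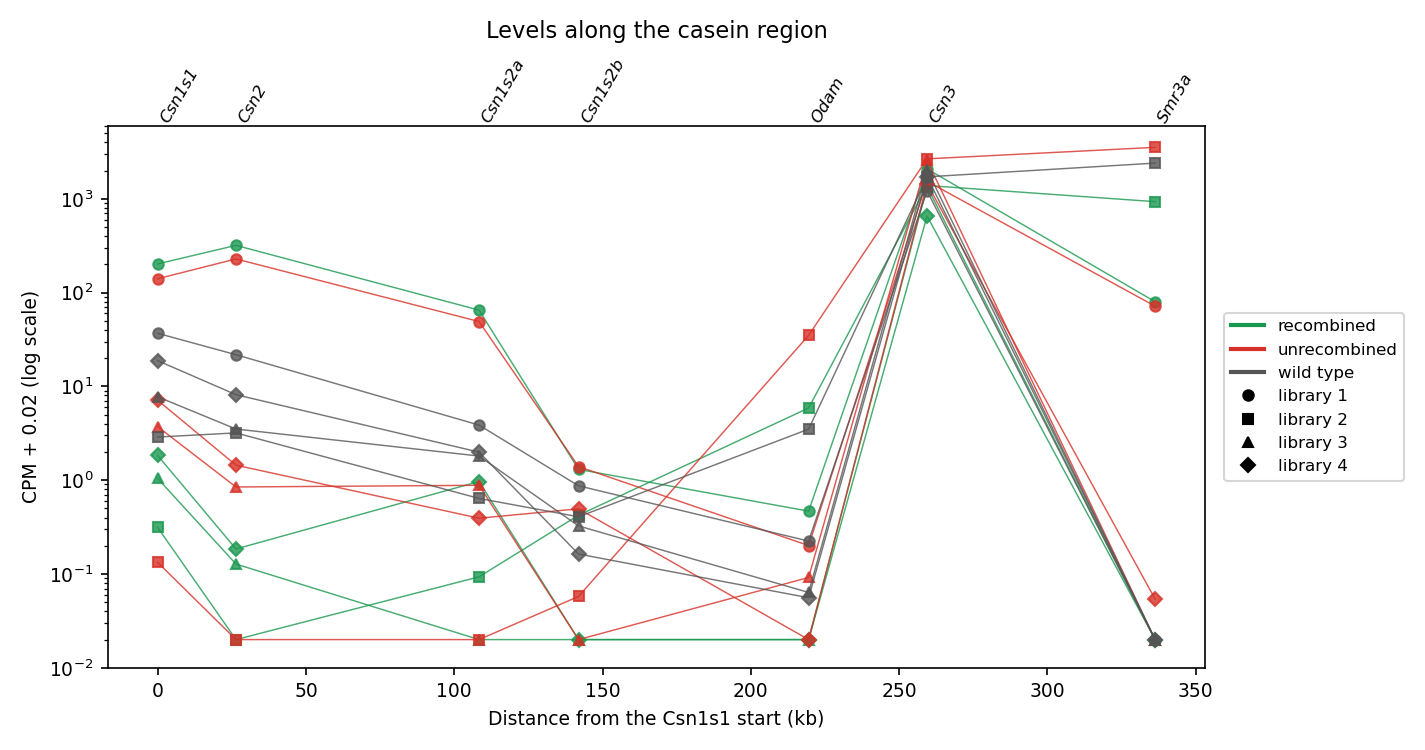
CPM plus 0.02 on a log axis against distance in kb from the Csn1s1 start for the 5 caseins and their measured neighbours Odam and Smr3a, with 1 line per library colored by group. Csn1s1, Csn2 and Csn1s2a are spread over orders of magnitude between libraries, Csn3 at 259 kb is high in all 12, and Smr3a is high only in the 5 libraries with salivary transcripts.

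The caseins lie in 1 cluster, and the level along it changed gene by gene. Csn3 starts 259 kb from Csn1s1, with Odam, a secreted protein of enamel-forming and other epithelia, between Csn1s2b and Csn3. Odam had 0.448, 5.86, 0 and 0 CPM in recombined libraries, 0.181, 35.0, 0.0719 and 0 CPM in unrecombined libraries, and 0.204, 3.48, 0.0436 and 0.0358 CPM in wild type libraries. It was thus highest in the libraries with number 2, where Csn1s1 was lowest. Smr3a, a salivary gene next in line, had 931 CPM in recombined 2, 3531 in unrecombined 2 and 2399 in wild type 2, and 79.9 CPM in recombined 1 and 71.6 CPM in unrecombined 1. The 3 libraries with the most salivary RNA, recombined 2, unrecombined 2 and wild type 2, had 0, 0 and 3.17 CPM of Csn2. Recombined 1 and unrecombined 1, which also held salivary transcripts, had 318 and 228 CPM of Csn2. None of the 7 neighbouring loci tested, the caseins not counted, passed in any comparison. Of all loci, 6.55% passed in recombined against wild type, 0% in unrecombined against wild type and 5.22% in recombined against unrecombined libraries. At an unadjusted p under 0.05, edgeR gave 2, 0 and 0 of 7 in that order, against 20.6%, 3.85% and 18% of loci. Rufy3 and Grsf1 came nearest in recombined against wild type libraries (adjusted p of 0.235 and 0.241, edgeR).

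With all 12 libraries, no casein passed the quasi-likelihood test of edgeR in any comparison. In recombined against wild type libraries the log2 fold change was 3.12 ± 2.79 (SE) for Csn2, 1.64 ± 2.14 for Csn1s1 and 3.00 ± 2.35 for Csn1s2a, with adjusted p of 0.591, 0.735 and 0.530. The sign of these values depended on the model and on library 1. With all 12 libraries it was negative in limma-voom (-3.02, -1.39 and -1.01 for Csn2, Csn1s1 and Csn1s2a) and with the replicate number as a block (-2.86, -1.89 and -1.12). Wild type libraries were not paired with recombined libraries by number (r of -0.0314 to 0.185). The block values therefore depend on how the wild type libraries were numbered, and so does which wild type library is left out with number 1. Without number 1 in all 3 groups, an alternative chosen after seeing the data, the log2 fold change was -5.72 ± 1.52 for Csn2 and -3.23 ± 1.17 for Csn1s1, with adjusted p of 0.0515 and 0.148. All 3 remaining recombined libraries then lay below all 3 wild type libraries for Csn1s1, Csn2 and Csn3. These were 3 of the 8 genes tested, against 13.2% of all loci, and 0 of 8 lay wholly above, against 11.7%. Unrecombined lay below wild type libraries for 1 of 8 (4.72% of loci), and recombined below unrecombined libraries for 1 of 8 (11.1%). Libraries and direction were chosen after seeing the values, so these shares are descriptions only. Leaving out the 5 libraries with salivary transcripts instead, also chosen after seeing the data, left 2 recombined, 2 unrecombined and 3 wild type libraries. It removed recombined 1, with the most Csn2 of its group, and wild type 2, with the least of its group, and kept wild type 1. The log2 fold change of recombined over wild type libraries was then -6.24 ± 1.04 for Csn2 and -3.84 ± 0.765 for Csn1s1 (adjusted p of 0.0144 and 0.0258). That made 2 of 9 genes called, both lower, against 6.92% of loci called in either direction and 2.9% called lower. This was the only alternative in which any of the genes was called. The part of salivary transcripts in these values was not tested.

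Csn3 encodes κ-casein, which coats and stabilizes the micelle surface. It had 2080, 1384, 1350 and 655 CPM in recombined libraries, 1536, 2663, 2567 and 1445 CPM in unrecombined libraries, and 1214, 1712, 2036 and 1722 CPM in wild type libraries. Recombined 4 was the lowest of all, and the 3 groups overlapped. Within pairs of the same number, Csn3 was lower in the recombined library by a log2 difference of -0.94, -0.93 and -1.14 for numbers 2 to 4 and higher by 0.44 for number 1. The test, which does not use the pairs, gave -0.59 ± 0.303 between recombined and unrecombined libraries (adjusted p = 0.333). Over all alternatives, which include fits with the replicate number as a block, this value lay between -0.98 and -0.24 and never passed. Between recombined and wild type libraries the test gave -0.29 ± 0.302 (adjusted p = 0.647).

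Unlike the other caseins, Csn3 did not follow Csn2 (r = 0.13, rho = 0.10 over 12 libraries). It followed Krt18, a keratin of luminal cells, with r of 0.84 and rho of 0.82, and r of 0.64 without the 2 libraries farthest from the median of Csn3. Krt18 had 717, 612, 414 and 290 CPM in recombined libraries, 715, 1139, 1073 and 570 CPM in unrecombined libraries, and 668, 1321, 955 and 1020 CPM in wild type libraries. Both genes were lowest in recombined 4. The summed level of the luminal keratin list was 2323 to 4533 CPM in recombined, 3356 to 8160 in unrecombined and 4106 to 7320 CPM in wild type libraries, and its part in the level of Csn3 was not tested.

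Wap, the whey acidic protein, on chromosome 11 from 6535485, had 8 counts in all 12 libraries. These were 2, 1, 0 and 0 in recombined libraries, none in the 4 unrecombined libraries, and 1, 1, 0 and 3 in wild type libraries. In no library, therefore, did this marker of late pregnancy and lactation exceed 0.108 CPM, including recombined 1 and unrecombined 1 with their high β-casein.

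Lalba, on chromosome 15 from 98310830, had 17.1, 2.27, 7.0 and 14.1 CPM in recombined libraries, 8.51, 3.01, 8.09 and 5.23 CPM in unrecombined libraries, and 1.84, 2.48, 6.20 and 6.02 CPM in wild type libraries. Recombined 1 and 4 were the highest of the 12, while recombined 2 lay within the wild type range. The log2 fold change of recombined over wild type libraries was 1.29 ± 0.587. It had the smallest unadjusted p of the genes tested in that comparison by edgeR, 0.0450, and did not pass over all loci (adjusted p = 0.230). Its correlation with Csn2 was weak (r = 0.32, rho = 0.28), and it was -0.17 without recombined 1 and unrecombined 1.

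Glycam1 encodes a mucin-like protein secreted into milk and is also made by the high endothelial venules of lymph nodes. On chromosome 15 from 103393192, it had 0.0896, 10.2, 2.10 and 0.0412 CPM in recombined libraries, 0, 371, 0 and 6.82 CPM in unrecombined libraries, and 31.4, 1108, 284 and 0 CPM in wild type libraries. Unrecombined 2 and wild type 2 and 3 were high, and libraries near 0 occurred in every group. In each group Glycam1 was highest in library 2, which also had the most salivary marker RNA. Those sums were 21201, 96645 and 42965 CPM in recombined, unrecombined and wild type 2. Wild type 3, also high in Glycam1, had 82.2 CPM of salivary markers. Recombined 1 and unrecombined 1 had 1354 and 1427 CPM of them with Glycam1 near 0. The part of salivary transcripts in Glycam1 was not tested. The log2 fold change was -6.84 ± 3.29 for recombined over wild type libraries (adjusted p = 0.284) and -4.93 ± 3.02 for recombined over unrecombined libraries (adjusted p = 0.443).

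Markers of other cells were low but not absent beside Glycam1. The summed level of 12 lymphocyte markers was 0 to 6.52 CPM in recombined, 0.435 to 3.84 in unrecombined and 0.717 to 9.17 CPM in wild type libraries, the highest being wild type 2. That library, with the highest Glycam1, also held 1.90 CPM of Ccr7 and no Cd3e. Summed endothelial markers were 47.5 to 115 CPM in recombined, 116 to 207 in unrecombined and 99.1 to 155 CPM in wild type libraries. Unrecombined 1 had the most endothelial RNA and no Glycam1 count. The part of lymph node cells in Glycam1 was not tested.

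Btn1a1, on chromosome 13 from 23548861, was high in every library. It had 1525, 574, 1077 and 614 CPM in recombined libraries, 951, 656, 1629 and 856 CPM in unrecombined libraries, and 240, 606, 645 and 721 CPM in wild type libraries. Wild type 1, the wild type library with the most Csn2, had the least Btn1a1. Mean levels were 948 ± 448 CPM in recombined, 1023 ± 422 in unrecombined and 553 ± 214 CPM in wild type libraries (SD, n = 4 each). The log2 fold change was 0.78 ± 0.382 for recombined over wild type (adjusted p = 0.274) and 0.89 ± 0.383 for unrecombined over wild type libraries, where the unadjusted p was 0.0366 and the adjusted p 1.

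Xdh, on chromosome 17 from 74233247, had 123, 42.1, 63.3 and 35.2 CPM in recombined libraries, 123, 65.0, 110 and 52.1 CPM in unrecombined libraries, and 43.3, 38.6, 85.0 and 74.6 CPM in wild type libraries. Both libraries with number 1 of the Cre animals were highest, and all groups overlapped. The log2 fold change was 0.13 ± 0.400 for recombined over wild type, 0.54 ± 0.401 for unrecombined over wild type and -0.41 ± 0.400 for recombined over unrecombined libraries, none of which passed (adjusted p of 0.900, 1 and 0.660).

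Btn1a1 varied with other genes of the fat globule, and also with Lalba, more closely than with β-casein. Its r with Plin2, which coats the lipid droplet, was 0.90 (rho 0.92), with the globule membrane protein Mfge8 0.86 (rho 0.87) and with Xdh 0.69 (rho 0.75). With Lalba, a whey protein gene, r was 0.71 (rho 0.71), and with Elf5 0.53 (rho 0.75). With Csn2 it was 0.12 (rho 0.17), and -0.39 without recombined 1 and unrecombined 1. Plin2 had 169, 54.4, 141 and 65.8 CPM in recombined libraries, 154, 77.9, 169 and 136 CPM in unrecombined libraries, and 45.1, 101, 69.2 and 85.0 CPM in wild type libraries.

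**Figure D3:**
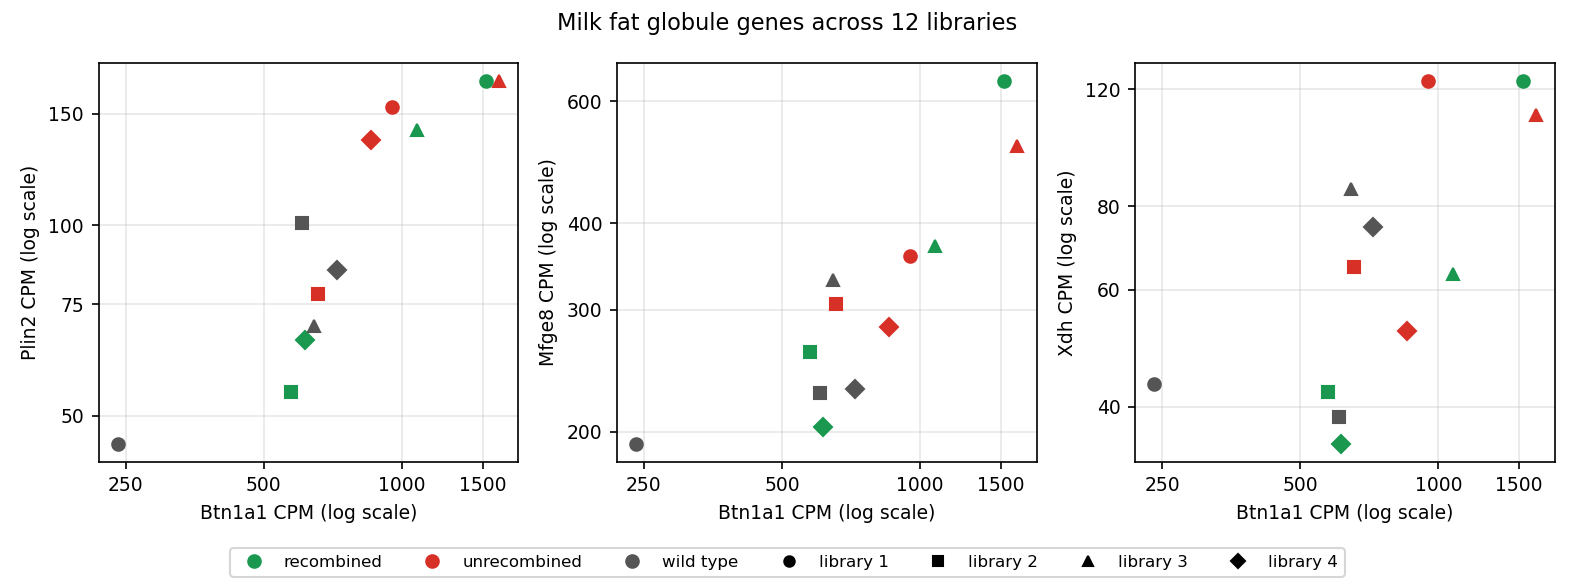
CPM of Plin2, Mfge8 and Xdh against CPM of Btn1a1, both axes on a log scale, with 1 point per library colored by group. Plin2 follows Btn1a1 with r = 0.90 and Mfge8 with 0.86 over the 12 libraries, and wild type 1 has the least Btn1a1, at 240 CPM.

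In all, 0 of the 9 genes tested passed an adjusted p of 0.05 in recombined against wild type libraries, against 6.55% of all loci, and 0 of 9 in recombined against unrecombined libraries, against 5.22%. In unrecombined against wild type libraries 0 of 9 passed, against 0% of all loci. At an unadjusted p under 0.05, edgeR gave 1 of 9, 0 of 9 and 1 of 9 in these comparisons, against 20.6%, 18% and 3.85% of loci. DESeq2 called 0 of 9 in each as well, against 11.5%, 9.61% and 0.541% of loci, and so did limma-voom, against 5.41%, 5.06% and 0.128%. The median log2 fold change of the 9 genes was 0.78, -0.11 and 0.59, beside medians over all loci of -0.02, -0.0088 and -0.0021. No gene of the 10 had groups that did not overlap in any comparison, against 12.2%, 11.3% and 4.42% of loci. The comparisons with wild type share the wild type libraries, and those with recombined libraries share these.

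**Figure D4:**
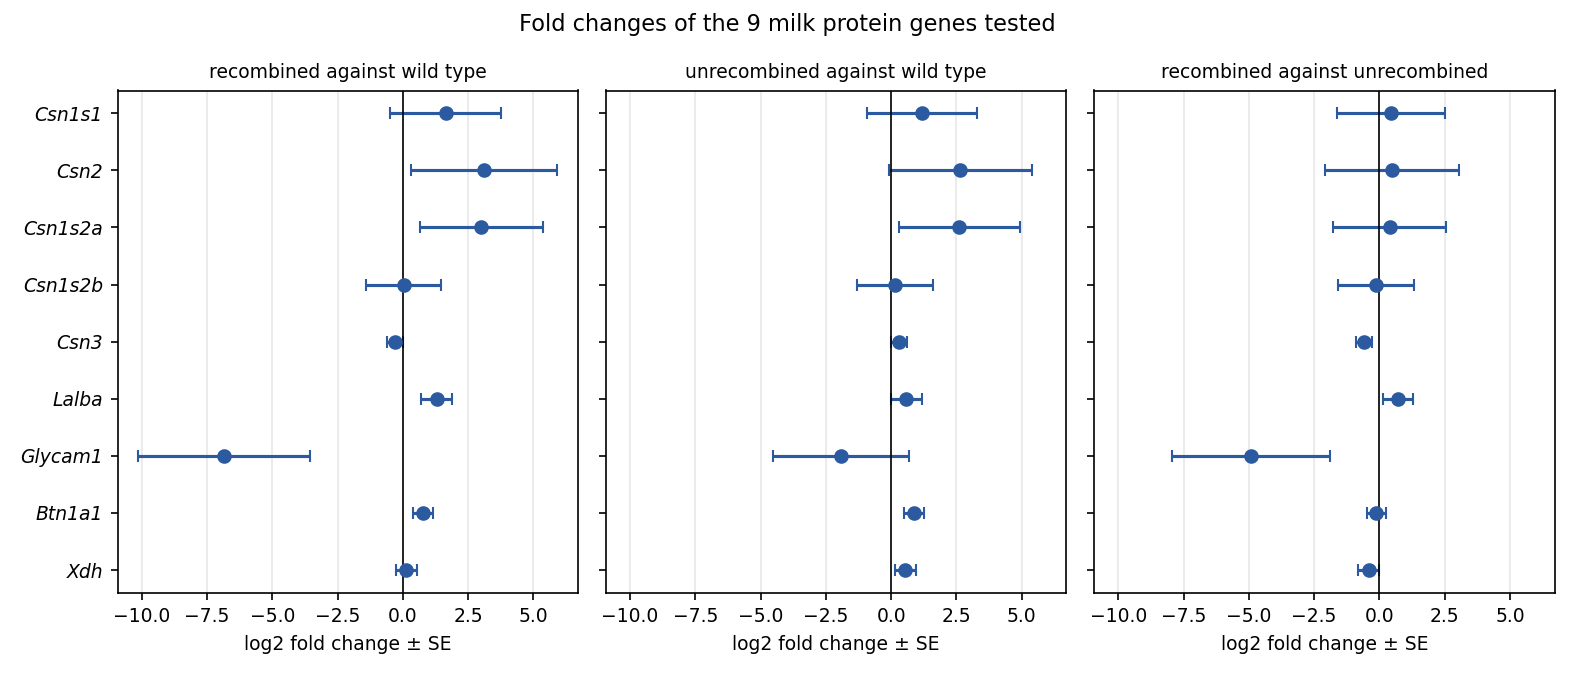
Log2 fold change with its SE from edgeR for the 9 genes tested, in recombined against wild type, unrecombined against wild type and recombined against unrecombined libraries. Errors run from 0.302 for Csn3 to 3.29 for Glycam1 in the first comparison, and none of the 27 values passed an adjusted p of 0.05.

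Over all loci the SE had a median of 0.370 between recombined and wild type libraries. It was close to this for Csn3, Btn1a1 and Xdh and far larger for Csn1s1, Csn2, Csn1s2a, Csn1s2b and Glycam1. Differences of a few-fold in these 5 genes were therefore not detectable with 4 libraries a group.

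Genes for milk fat and lactose were listed beside the 10, and 24 of 25 were tested. Between recombined and wild type libraries, 1 rose, 3 fell and 20 did not pass, while 6.55% of all loci passed. The median log2 fold change was 0.21, beside -0.02 over all loci. Lpl, the lipase that takes up fatty acids from the blood, counted with AK170106, had 13.6, 4.98, 10.1 and 6.06 CPM in recombined libraries and 35.3, 37.3, 54.3 and 50.9 CPM in wild type libraries, and fell by 2.35 ± 0.285 on the log2 scale (adjusted p = 0.000324). It is also expressed by adipocytes and stromal cells. The summed level of 12 fibroblast markers was 513 to 1335 CPM in recombined, 7314 to 10237 in unrecombined and 2216 to 4765 CPM in wild type libraries, and 11 of the 12 fell in recombined against wild type libraries. Their part in the fall of Lpl was not tested. The summed level of 10 adipocyte markers was 47.2 to 133 CPM in recombined, 66.3 to 149 in unrecombined and 28.3 to 95.2 CPM in wild type libraries, and none of the 3 tested passed. Fabp4 and Lipe made up most of it, with 12.8 to 123 and 13.7 to 35.3 CPM, while Adipoq and Plin1 had at most 0.503 and 0.180 CPM in any library. The part of adipocyte transcripts was not tested.

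B4galt1, the catalytic partner of α-lactalbumin, had 130, 109, 94.9 and 90.6 CPM in recombined libraries, all below the 156, 159, 167 and 194 CPM in wild type libraries, and fell by 0.67 ± 0.160 (adjusted p = 0.0223). The entry named Pgm1, on mm9 chromosome 5 from 64484188, fell by 0.87 ± 0.240 (adjusted p = 0.0456), and its part in lactose synthesis was not tested. Galk1, the galactokinase, shares its entry with Itgb4 and AK140292, so its rise of 1.43 ± 0.311 (adjusted p = 0.0141) may be of either gene. Itgb4 is a hemidesmosome integrin of basal cells. B4galt1 no longer passed when wild type 3 or 4 or recombined 3 or 4 was left out (adjusted p 0.0529 to 0.0818). Pgm1 no longer passed without recombined 3 or 4, unrecombined 1 or 2, or wild type 2, 3 or 4 (0.0609 to 0.116). Nor did it pass with limma-voom (0.0502), or in edgeR with only these groups fitted (0.0781) or the library number series (0.0656). The list held 2 calls without any 1 of wild type 3, wild type 4, recombined 3 or recombined 4, and 1 without both recombined 3 and 4.

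Against unrecombined libraries, Lpl fell by 3.92 ± 0.304 (adjusted p = 6.04e-06), B4galt1 by 0.62 ± 0.159 (0.0355), and the Galk1 entry rose by 1.34 ± 0.310 (0.0202). The median was -0.22, and 21 of 24 did not pass, while 5.22% of all loci passed. The call of Galk1 was lost without recombined 3 or 4 or unrecombined 1 or 4 (adjusted p 0.0554 to 0.0748), and that of B4galt1 without recombined 2, 3 or 4, unrecombined 1, 2 or 3, or wild type 3 (0.0551 to 0.0972). The list then had 1 call without any 1 of recombined 3, recombined 4 or unrecombined 1. None of the 24 passed edgeR, with 2 at an unadjusted p under 0.05, in unrecombined against wild type libraries, where Lpl had 154, 129, 124 and 119 CPM in unrecombined against 35.3 to 54.3 CPM in wild type libraries (1.56 ± 0.276, adjusted p = 0.128) and Plin2 differed by 0.84 ± 0.362 (adjusted p = 1). DESeq2, limma-voom and the fit of only these groups called Lpl higher (adjusted p of 0.000103, 0.0190 and 0.0275).

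Of 20 other secreted or transport genes of the milk-making gland tested, Pthlh rose and Stc2 fell between recombined and wild type libraries, with a median of 0.46. These were 2 of 20, a share near the 6.55% of all loci that passed. Pthlh, the parathyroid hormone-related protein that mobilizes calcium in lactation and is also made by basal and embryonic mammary cells, had 3.88, 16.2, 19.2 and 30.4 CPM in recombined libraries and 0.988, 0.0387, 0.916 and 1.97 CPM in wild type libraries. The lowest recombined library exceeded the highest wild type library, and the rise was 4.14 ± 0.834 (adjusted p = 0.00940). Stc2, a secreted glycoprotein linked to calcium and phosphate balance, had 122, 78.8, 23.9 and 96.3 CPM in recombined libraries and 246, 913, 315 and 843 CPM in wild type libraries, and fell by 2.85 ± 0.513 (adjusted p = 0.00545). Basal markers summed to 1970 to 8092 CPM in recombined and 977 to 1260 CPM in wild type libraries, and their part in Pthlh was not tested.

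Against unrecombined libraries Pthlh rose by 3.02 ± 0.787 (adjusted p = 0.0389), as 1 of 20, a share near the 5.22% of all loci. This call was lost without recombined 2, 3 or 4, unrecombined 1, 3 or 4, or wild type 1 or 3, with adjusted p of 0.0531 to 0.121. With the replicate number as a block, which pairs these groups, 2 rose and 1 fell. In unrecombined against wild type libraries none of 20 passed edgeR, with 3 at an unadjusted p under 0.05, 1 passed DESeq2 and 0 limma-voom. Spp1, which encodes osteopontin, differed by 1.84 ± 0.445 (adjusted p = 0.443, and 0.00540 with DESeq2) and Stc2 by -1.45 ± 0.488 (adjusted p = 0.918).

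Prlr, the prolactin receptor, fell in recombined against wild type libraries by 2.04 ± 0.310 (adjusted p = 0.00154) and against unrecombined libraries by 1.60 ± 0.305 (0.00629). Without both recombined 3 and 4 it no longer passed against unrecombined libraries (-1.16, edgeR adjusted p = 0.0644). Levels of Prlr were 1148, 1329, 477 and 712 CPM in recombined, 2701, 3399, 2122 and 2913 CPM in unrecombined, and 2214, 4556, 3651 and 4639 CPM in wild type libraries. Recombined 1, with the most β-casein of all, thus had less Prlr than every unrecombined and wild type library. Prlr is itself 1 of the 14 hormone-sensing luminal markers. Of the other 13, 7 fell as well in recombined against wild type libraries (median -1.60), while 6.55% of all loci passed. Against unrecombined libraries 3 of the 13 fell (median -1.17), while 5.22% of all loci passed. The summed level of these 13 was 217 to 587 CPM in recombined, 721 to 1225 in unrecombined and 991 to 1745 CPM in wild type libraries, and its part in the fall of Prlr was not tested.

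Of the 24 genes of the prolactin and Stat5 list, all tested, 4 rose, 1 fell and 19 did not pass between recombined and wild type libraries. Their median was 0.16, and 6.55% of all loci passed. Besides Prlr, the growth hormone receptor Ghr rose by 1.03 ± 0.204 (adjusted p = 0.00863) and the NFI factor Nfix, counted with AK168184, by 1.15 ± 0.238 (0.0106). Socs3, a feedback inhibitor of cytokine signalling, rose by 1.35 ± 0.328 (0.0240), and no longer passed when wild type 1, 2 or 3 or recombined 3 or 4 was left out (0.0652 to 0.0764). Cish, another feedback inhibitor and Stat5 target, was the fourth, named after its values were seen. It had 14.1, 12.7, 10.3 and 24.6 CPM in recombined and 7.12, 8.44, 8.55 and 5.84 CPM in wild type libraries, a rise of 1.04 ± 0.291 (adjusted p = 0.0478). The list held 3 calls without recombined 4, without wild type 1, 2 or 3 or with only these groups fitted, and 1, Prlr, without both recombined 3 and 4.

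Elf5, Stat5a and Stat5b did not pass. Elf5 had 259, 58.9, 115 and 87.7 CPM in recombined libraries, 176, 106, 122 and 130 CPM in unrecombined libraries, and 113, 91.2, 77.1 and 111 CPM in wild type libraries. Recombined over wild type libraries, Elf5 differed by 0.41 ± 0.351 (adjusted p = 0.565), and by -0.17 without recombined 1. Library 1 had the most Elf5 of each group. The r of Elf5 with Csn2 was 0.73 (rho 0.53), and 0.33 without recombined 1 and unrecombined 1. Stat5a had 38.7, 37.4, 33.1 and 33.7 CPM in recombined and 43.4, 57.2, 31.7 and 37.2 CPM in wild type libraries (-0.25 ± 0.200, adjusted p = 0.538). Stat5b, counted with AK088966, differed by -0.36 ± 0.257 (adjusted p = 0.473). Against unrecombined libraries Nfix rose by 1.55 ± 0.241 (0.00145) and Socs3 by 1.66 ± 0.331 (0.00822). Prlr was the only other of 24 to pass, while 5.22% of all loci passed. In unrecombined against wild type libraries none passed edgeR, DESeq2 or limma-voom, 1 had an unadjusted p under 0.05 in edgeR, and Stat5a (-0.51 ± 0.201) and Nfix (-0.40 ± 0.236) had the smallest p, with an adjusted p of 1 each.

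**Figure D5:**
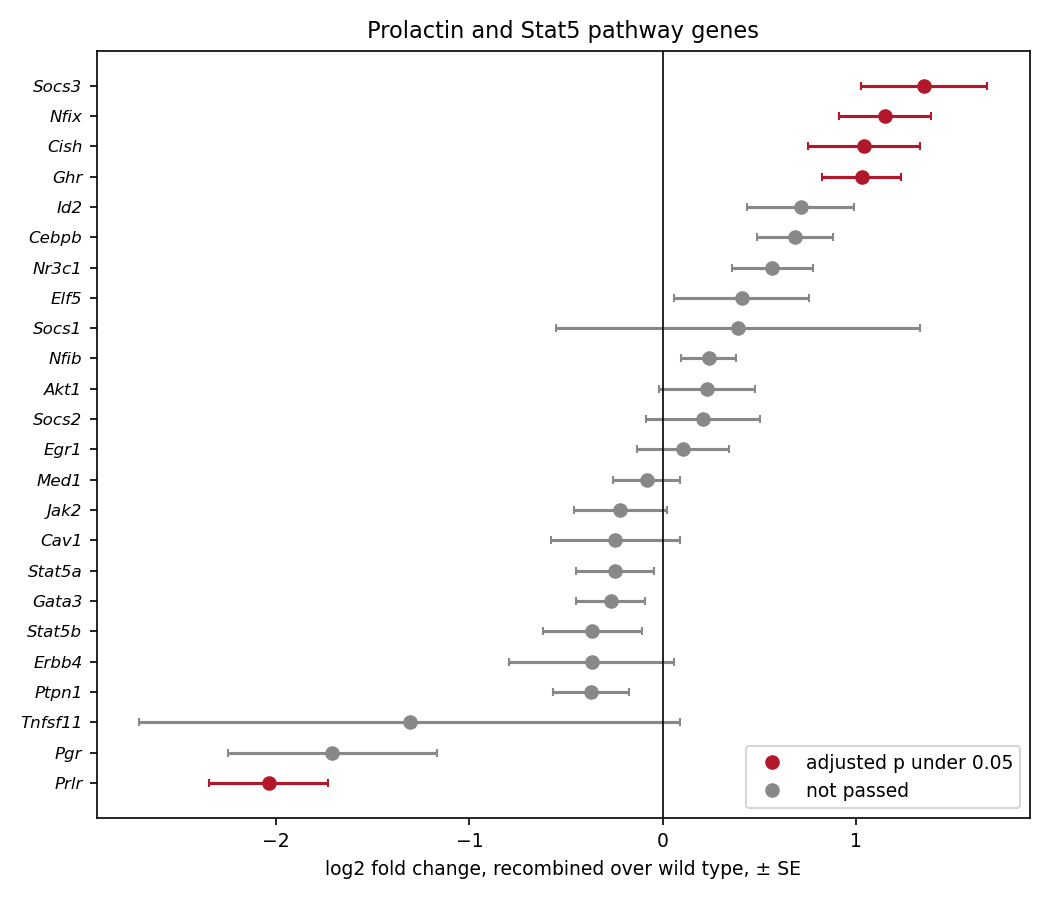
Log2 fold change of recombined over wild type libraries, with SE, for the 24 prolactin and Stat5 pathway genes, sorted by size. Red points passed an adjusted p of 0.05 in edgeR: Prlr is lowest at -2.04, and Ghr, Cish, Nfix and Socs3 lie between 1.03 and 1.35.

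The loci whose log2 CPM followed the milk genes most closely over the 12 libraries were found as the 3 highest Pearson correlations for each gene. For Csn2 these were Ogfrl1 (0.93), Ubxn7 counted with AK213200 (0.89) and Pkhd1 (0.88), and for Csn1s1 the Ubxn7 entry (0.93), Otop1 (0.92) and Ogfrl1 (0.91). The mean of the caseins led to Ogfrl1, Otop1 and Timd2 (0.92, 0.90 and 0.89). For Csn3 they were Sh2b3 (0.97), Lgals3 (0.95) and Mospd2 (0.94), with 0.97, 0.96 and 0.92 after subtracting group means. Lgals3 encodes galectin-3, a sugar-binding protein of epithelia and macrophages.

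For Btn1a1 the closest locus of all was Plin2 (0.90), followed by Arhgef6 and Atp6v1b1 (0.88 each), and for Xdh the nucleoside transporter Slc28a3 (0.94), Akap12 (0.92) and Pkib (0.88). Lalba was closest to the fatty acid transporter Slc27a1 (0.89), Rftn2 counted with AK135004 (0.87) and Gm2a (0.85). Glycam1 was closest to Serpina1b (0.90), to the macrophage receptor Marco (0.90) and to Gpr171 (0.88), a receptor of lymphoid cells. The r with Plin2 was 0.88 after subtracting group means, and that of Glycam1 with Marco 0.90. These correlations are the highest of 14039 and describe these libraries only.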

How the data were processed

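Per the submitters' processing notes, reads were processed with STAR and with HTSeq 0.3.1 on mouse build mm9. The notes give no strand setting or annotation, so overlapping and antisense genes cannot be separated. The deposited table holds raw read counts of 36635 entries in 12 libraries, per the file headers. The 20114 entries that name 1 locus were used, and 16521 that name several were left out. Scaling was by TMM, and testing by glmQLFTest of edgeR 4.0.16, a quasi-likelihood test (R 4.3.3, default filter, robust, all 12 libraries in 1 fit, 1 mean per group, two-sided). Benjamini-Hochberg adjustment ran over 14039 loci, with a threshold of 0.05 for adjusted p-values. CPM per kilobase divides CPM by the longest protein-coding transcript of the GRCm38 annotation. Log2 CPM used a prior count of 2. DESeq2 1.42.0, limma 3.58.1 (voom), other scalings and filters, the replicate block and left-out libraries were alternatives. The fit was tested on simulated counts. Floors cover counting error only.

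The genes and lists were chosen with earlier results of these data known. Named besides the 10 genes are up to 4 genes per list and comparison with the smallest p among those that passed, or the 2 with the smallest p where none did. Recombined and unrecombined libraries of the same number deviated together (r of 0.239 to 0.399, against -0.24 to -0.0345 for other numbers), so the numbers pair these groups. Wild type libraries were not paired with recombined (r of -0.0314 to 0.185) or unrecombined libraries (0.00248 to 0.312).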

Additional observations from a re-analysis of the deposited data

Results flagged for a closer look

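In 7 of 29 groups of 4 libraries, 1 library lay so far from the others that its gap to the nearest passed Dixon's 95% limit as a share of the whole range. That limit is passed in about 1 group of 20 only for normally distributed values. CPM on its plain scale is skewed in these genes, so the rate is no measure for the 7 groups. For Csn2, recombined 1 with 318 CPM had a gap of 0.999 of the range and unrecombined 1 with 228 CPM a gap of 0.994. Csn1s1 in the same libraries, with 202 and 140 CPM, had gaps of 0.992 and 0.95, and Csn1s2a, with 65.0 and 49.1 CPM, gaps of 0.985 and 0.982. Glycam1 in unrecombined 2, with 371 CPM, had a gap of 0.982. These genes and libraries are not independent, since the caseins vary together and recombined 1 and unrecombined 1 form a pair.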

How the results depend on the processing

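No gene of the 10 passed in any comparison under any alternative run except 1: in recombined against wild type cells 2 passed, both lower, without the 5 libraries with salivary transcripts. Signs were kept in 596 of 674 repeats of a gene's fold change and turned in 78. Reversed log2 fold changes follow, and the cause was not tested. In recombined against wild type libraries, Csn1s1, Csn1s2a, Csn1s2b and Csn2 had -1.39, -1.01, -1.26 and -3.02 with limma-voom, -1.89, -1.12, -1.01 and -2.86 with the replicate block, and -3.84, -2.34, -6.49 and -6.24 without the salivary libraries. Without number 1, Csn1s1, Csn1s2a and Csn2 had -3.23, -2.07 and -5.72. Csn1s2b, near 0, had -0.012 with upper quartile scaling, -0.0025 with DESeq2, -3.5e-05 with no filter and -0.20 with the library number series. Xdh had -0.024 with the replicate block, -0.50 without number 1 and -0.42 without the salivary libraries, Elf5 -0.10 without number 1, and Csn3 0.043 without recombined 3 and 4. In unrecombined against wild type libraries, Csn1s1, Csn1s2a, Csn1s2b and Csn2 had -1.25, -1.21, -1.18 and -2.16 with limma-voom, -1.37, -1.24, -0.64 and -2.39 with the replicate block and -1.95, -2.02, -0.84 and -3.28 without the salivary libraries, and Csn1s1, Csn1s2a and Csn2 -1.42, -1.81 and -2.70 without number 1. In recombined against unrecombined libraries, Csn1s1 and Csn2 had -0.14 and -0.86 with limma-voom, -0.53 and -0.47 with the replicate block, -0.75 and -0.82 with the block in only these groups, -1.80 and -3.02 without number 1 and -1.89 and -2.96 without the salivary libraries. Csn1s2a had -0.26 and -0.32 in those last 2, and without recombined 3 and 4 Csn1s2b had 0.82 and Btn1a1 0.029. Leaving out 1 library at a time gave ranges in recombined against wild type libraries of -3.99 to 2.39 for Csn1s1, -2.56 to 3.50 for Csn1s2a, -1.57 to 0.62 for Csn1s2b, -6.65 to 4.01 for Csn2, -0.37 to 0.34 for Xdh and -0.17 to 0.65 for Elf5. In unrecombined against wild type libraries they were -2.18 to 1.95, -2.30 to 3.10, -1.27 to 0.76 and -3.58 to 3.54 for the same 4 caseins. In recombined against unrecombined libraries they were -5.18 to 3.82, -5.16 to 5.31, -1.73 to 1.29 and -9.30 to 6.71 for these, -7.14 to 0.45 for Glycam1 and -0.44 to 0.20 for Btn1a1. The replicate block changed no call of these 10 genes, and its values against wild type libraries depend on how those were numbered, as do the values without number 1. Over all loci, 920 passed in recombined against wild type libraries, 1614 with DESeq2, 594 with only these groups, 248 without recombined 3 and 4, and 612, 600 and 502 without wild type 2, 3 or 4. In recombined against unrecombined libraries 733 passed, 1349 with DESeq2, 282 without recombined 3 and 4 and 449 without unrecombined 1. In unrecombined against wild type libraries 0 passed, and 76 with DESeq2, 18 with limma-voom, 8 with only these groups and 1 with the replicate block. Without recombined 3 and 4, Pthlh, Galk1, Ghr, Nfix, Socs3 and Stc2 lost their calls against wild type (adjusted p of 0.110, 0.216, 0.0916, 0.179, 0.361 and 0.0602). Of the genes of milk fat and lactose, 3 passed in recombined against unrecombined libraries and 1 with only these groups fitted or without recombined 3 and 4. Of the other secreted genes, 2 passed in recombined against wild type libraries, 1 with limma-voom or without the salivary libraries and 0 without recombined 3 and 4. Against unrecombined libraries 1 passed, 2 with DESeq2, 4 with the block in only these groups, and 0 with limma-voom, the library number series, or without number 1. Of the prolactin and Stat5 genes, 3 passed against unrecombined libraries and 1, Nfix, without recombined 3 and 4. Prlr and Socs3 lost their calls there (edgeR adjusted p of 0.0644 and 0.103). Depth limits Wap and Csn1s2b, and the spread between libraries limits Csn1s1, Csn2, Csn1s2a and Glycam1.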
